A study of Saccharomyces cerevisiae with 6 samples.

Results

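The singly transcribed box C/D snoRNAs are small nucleolar RNAs that each have a gene with its own promoter, apart from the snoRNAs that budding yeast cuts out of a shared precursor or an intron. The 24 listed snoRNAs of this kind were looked up by name among the features counted in *S. cerevisiae* RNA-seq libraries, and all 24 were found among 8898 features. The name of 1 of them, snR39B, differed from the list in the case of a letter. RNA had been collected from 3 *rrp4-G226D* and 3 *RRP4* cultures after growth at 37°C for 5 h in minimal medium without leucine, depleted of rRNA and sequenced as stranded libraries. The question for these RNAs was which of them differed between the genotypes. All cells were haploid, of strain BY4742, with the genotype ura3∆0 leu2∆0 his3∆1, to which the study's strain list adds lys2∆0, and had *rrp4∆::NEO* in place of the chromosomal *RRP4* gene. They carried a LEU2 CEN pRS315 plasmid with Myc-tagged *rrp4-G226D* or with Myc-tagged wild-type *RRP4*, so that both genotypes depended on a plasmid copy. Rrp4 is a cap subunit of the RNA exosome, and the G226D change models a variant of the human protein EXOSC2.

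Box C/D snoRNAs carry a C box near the 5′ end and a D box near the 3′ end, and are bound by Nop1, Nop56, Nop58 and Snu13. Most of them pair with rRNA just upstream of a D or D′ box and direct Nop1, the methyltransferase, to a single ribose. Others act in processing of the rRNA precursor, as U3 does, or guide base acetylation by Kre33. In budding yeast the nuclear exosome trims the 3′ ends of many snoRNA precursors after termination by Nrd1, Nab3 and Sen1, and it also degrades snoRNA precursors.

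The sequences of the snoRNAs with the largest changes are shown here so that the guides can be read against the changes given afterwards. All are printed 5′ to 3′ as DNA from RefSeq's R64 assembly, the build of the count files. Capitals mark a stretch whose letters can pair with the rRNA around the annotated target base, G-U pairs included. The 5 guides that increased were snR71 (chrVIII:411228-411317, plus strand), snR47 (chrIV:541602-541700, minus strand), snR56 (chrII:88190-88277, plus strand), snR48 (chrVII:609584-609696, plus strand) and snR69 (chrXI:364776-364876, plus strand).
snR71: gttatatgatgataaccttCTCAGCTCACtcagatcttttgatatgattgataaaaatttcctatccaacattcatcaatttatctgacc
snR47: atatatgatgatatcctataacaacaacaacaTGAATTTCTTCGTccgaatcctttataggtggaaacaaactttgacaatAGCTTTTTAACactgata
snR56: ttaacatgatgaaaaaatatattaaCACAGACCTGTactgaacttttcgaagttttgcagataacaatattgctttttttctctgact
snR48: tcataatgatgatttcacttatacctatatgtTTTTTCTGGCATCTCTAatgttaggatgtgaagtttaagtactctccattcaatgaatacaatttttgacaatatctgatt
snR69: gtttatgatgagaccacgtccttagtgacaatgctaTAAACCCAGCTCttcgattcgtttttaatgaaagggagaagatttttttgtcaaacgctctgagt
The methylation guides that decreased were snR63 (chrIV:323217-323471, minus strand), snR52 (chrV:431129-431220, minus strand), snR40 (chrXIV:89210-89306, plus strand) and snR79 (chrXII:348427-348510, minus strand).
snR63: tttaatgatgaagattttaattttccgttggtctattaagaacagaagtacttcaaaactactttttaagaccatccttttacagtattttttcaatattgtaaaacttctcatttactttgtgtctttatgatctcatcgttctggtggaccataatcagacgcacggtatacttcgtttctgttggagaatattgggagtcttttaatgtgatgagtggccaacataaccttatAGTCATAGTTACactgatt
snR52: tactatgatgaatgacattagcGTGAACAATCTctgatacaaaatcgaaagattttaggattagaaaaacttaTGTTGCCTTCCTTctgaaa
snR40: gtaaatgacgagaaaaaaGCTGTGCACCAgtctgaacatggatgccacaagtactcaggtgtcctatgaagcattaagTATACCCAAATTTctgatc
snR79: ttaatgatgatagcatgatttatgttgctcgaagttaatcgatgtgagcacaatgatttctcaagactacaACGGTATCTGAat
The acetylation guide snR4 (chrV:424698-424883, plus strand) decreased as well, and its capitals mark its D box letters CTGA.
snR4: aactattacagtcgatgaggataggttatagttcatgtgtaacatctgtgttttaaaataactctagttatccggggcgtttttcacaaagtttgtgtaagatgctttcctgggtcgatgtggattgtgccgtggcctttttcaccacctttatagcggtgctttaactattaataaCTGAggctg
Annotated targets came from RefSeq, which names 26 methylated bases for 20 of the members. For 19 of these bases, in 15 snoRNAs, a run of 10 to 19 pairs placed the annotated base opposite the fifth base upstream of CTGA or of letters that differ from it once. For the other 7 bases, of snR13, snR48, snR69, snR79 and snR87, no such run of at least 9 pairs was found, and the stretch with the most Watson-Crick pairs over the base was taken without regard to a box. In snR79 the stretch, bases 72 to 82, takes in the D box letters CTGA that start at base 79. Whether that stretch is the guide was not tested. The targets of snR71 (A2946) and snR69 (C2948), 2 of the 5 that increased, are 2 positions apart in 25S rRNA. Both bases are in capitals in the following site of 25S rRNA (chrXII:452224-452246, minus strand), shown as DNA.
25S: agggaacgtgAgCtgggtttaga

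Of the 24 snoRNAs, 5 increased, 7 decreased and 12 did not pass the threshold in *rrp4-G226D* cells. A call required an adjusted p below 0.05 in edgeR's quasi-likelihood test and a change of at least 1.5-fold. By this rule 20.8% of the members increased, against 12.7% of all 7631 features tested, and 29.2% of the members decreased, against 11.3% of all features. The members that decreased were both copies of U3 (snR17a and snR17b), snR4, snR63, snR52, snR40 and snR79. The members that increased were snR71, snR47, snR56, snR48 and snR69, all methylation guides. The median log2 fold change of the 24 was −0.07, beside 0.01 over all features, with 12 above and 12 below 0. The libraries of the genotypes did not overlap for 13 members, 6 higher and 7 lower in *rrp4-G226D*, beside 64.1% of all features. These values are relative to the other RNAs of a library. A lower amount of RNA per cell or a change in the number of cells cannot be told apart from them. Counts per gene feature also do not separate a mature snoRNA from longer precursors that contain it.

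**Figure D1:**
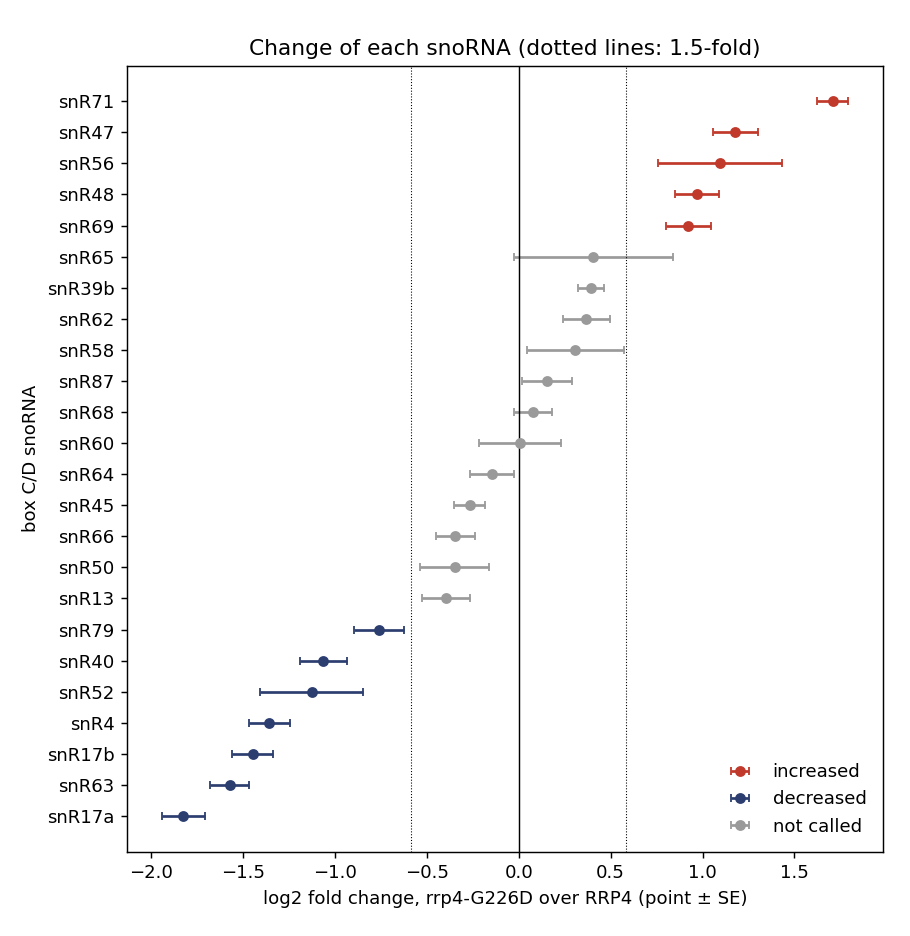
Log2 fold change of each of the 24 snoRNAs, *rrp4-G226D* over *RRP4*, with its standard error, from 3 libraries of each genotype; dotted lines stand at 1.5-fold. The changes run between 1.71 for snR71 and −1.82 for snR17a, and 12 lie between the calls in the 2 directions.

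The libraries held 7663545 to 12181979 counts. *RRP4* itself, read from the plasmid in every library, had 299, 281 and 302 TMM-scaled CPM (counts scaled to a common library size) in *rrp4-G226D* libraries, against 178, 167 and 165 CPM in *RRP4* libraries. The counts do not separate the alleles. Of the markers of MATα cells, MF(ALPHA)1 had 8519 to 17821 counts per library, STE3 992 to 1658 and MF(ALPHA)2 36 to 74. Of the markers of MATa cells, STE2 had 66 to 139 counts, more than MF(ALPHA)2 in every library. MFA1 had 14 to 40 counts and MFA2 6 to 20. URA3, which the strain lacks, had 0 counts in all 6 libraries, and LYS2 had 0 or 1. HIS3, given as his3∆1 in the genotype, had 478 to 885 counts, and LEU2, which the plasmid carries, had 14538 to 19683. The TMM factors lay between 1.15 and 1.20 in *rrp4-G226D* and between 0.82 and 0.88 in *RRP4* libraries, so the scaling differed between the genotypes. With library size alone the median of all features moved to 0.46, and with the summed box H/ACA snoRNAs as the scale it moved to 1.26. With library size alone 9 members increased and 6 decreased, and on the box H/ACA scale 17 increased and 0 decreased. A scaling shifts all features of a library alike. Relative to the median of all features, no log2 fold change of a member moved by more than 0.0057 with library size alone. On the box H/ACA scale the largest such move was 0.0136. There snR39b (1.644) stood above snR65 (1.642), the reverse of their order with TMM (0.392 and 0.406).

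U3 is not a methylation guide. It pairs with the rRNA precursor in the SSU processome, the particle in which 18S rRNA is made, and is encoded by the genes snR17a (chrXV:780107-780596, plus strand) and snR17b (chrXVI:281056-281517, minus strand). Both were decreased in *rrp4-G226D* cells, and they were the most abundant members. snR17a had 9181, 7191 and 8779.7 CPM in *rrp4-G226D* libraries, against 34649, 27153 and 27169 CPM in *RRP4* libraries. Each *rrp4-G226D* library lay below every *RRP4* library. The log2 fold change was −1.82 ± 0.12 (SE), or 3.54-fold lower, with an adjusted p of 9.72e-10 (edgeR). snR17b had 4964, 3752 and 4093 CPM in *rrp4-G226D* libraries, against 13479, 11004 and 10434 CPM in *RRP4* libraries. It was 2.73-fold lower, with a log2 fold change of −1.45 ± 0.11 (SE) and an adjusted p of 6.20e-09 (edgeR), again without overlap.

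The fitted fall of snR17a was larger than that of snR17b, and a difference between the copies could not be established with 3 libraries of each genotype. The counts of snR17a divided by those of snR17b within a library, a ratio that needs no scaling, were 1.85, 1.92 and 2.14 in *rrp4-G226D*, against 2.57, 2.47 and 2.60 in *RRP4*. The log2 ratio averaged 0.98 ± 0.11 in *rrp4-G226D* and 1.35 ± 0.04 in *RRP4* (SD, n = 3 each). The difference of −0.37 gave p = 0.1 in a two-sided exact permutation test, which is the smallest p that 3 libraries against 3 allow. Without their introns the copies are 330 and 329 bases long and 91.8% identical, and the introns, at bases 15 to 174 of snR17a and 15 to 147 of snR17b, are 59.0% identical. Of the 50-base windows of the genes, 91.8% in snR17a and 91.3% in snR17b occur once in the genome, and for every other member all of them do. Reads from the remaining windows could have been given to either copy or to neither. The stretch in which the mature copies differ most is printed next, with the differing bases in capitals, 20 of 100 aligned positions. It is chrXV:780466-780565, plus strand in snR17a and chrXVI:281087-281186, minus strand in snR17b.
snR17a: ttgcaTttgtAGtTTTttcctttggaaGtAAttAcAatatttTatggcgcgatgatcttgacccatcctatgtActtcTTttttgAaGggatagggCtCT
snR17b: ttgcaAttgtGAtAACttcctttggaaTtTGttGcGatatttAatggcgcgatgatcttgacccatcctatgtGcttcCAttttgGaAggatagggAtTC

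**Figure D2:**
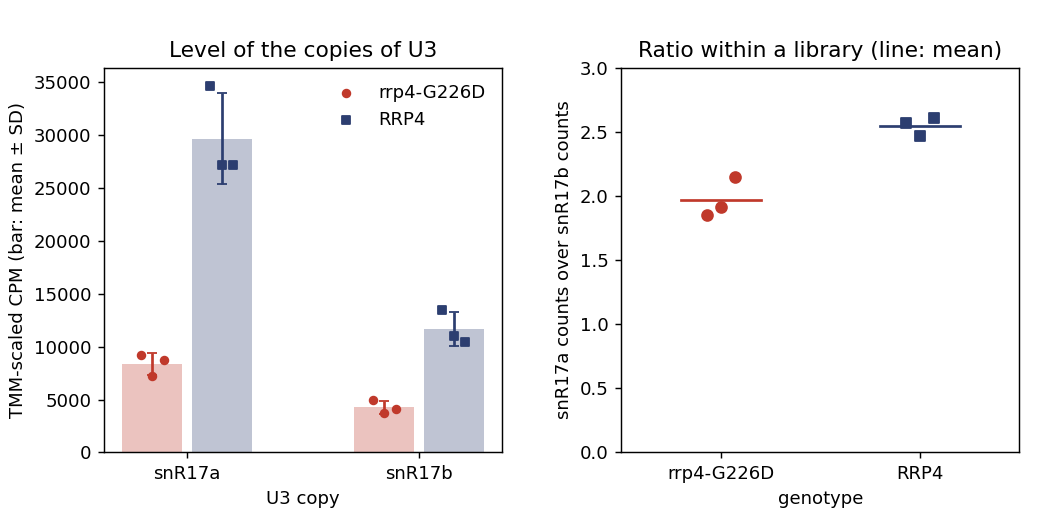
Left, TMM-scaled CPM of snR17a and snR17b in each library, with bars at the mean and error bars of 1 SD for *rrp4-G226D* and *RRP4* (n = 3 each). Right, the count of snR17a over that of snR17b in each library, 1.85 to 2.14 in *rrp4-G226D* and 2.47 to 2.60 in *RRP4*.

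The 2 members that guide cytosine acetylation differed in call. snR4, annotated with Kre33 for C1280 of 18S rRNA, had 3145, 2181 and 2558 CPM in *rrp4-G226D* libraries, against 7530.4, 6481 and 6156 CPM in *RRP4* libraries. It was 2.56-fold lower without overlap, with a log2 fold change of −1.36 ± 0.11 (SE) and an adjusted p of 1.34e-08 (edgeR). snR45, annotated for C1773 of 18S rRNA, had 199.5, 147 and 173 CPM in *rrp4-G226D* libraries, against 225, 197 and 202 CPM in *RRP4* libraries. Its libraries overlapped, and its log2 fold change of −0.27 ± 0.09 (SE) stayed under 1.5-fold at an adjusted p of 0.0124 (edgeR). The mRNA of KRE33, the acetyltransferase, had a log2 fold change of 0.00 ± 0.08 (SE), at an adjusted p of 0.998 (edgeR).

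Among the 20 methylation guides, 5 increased, 4 decreased and 11 were not called. The largest increase was that of snR71, the guide for A2946 of 25S rRNA, with 61.5, 64.0 and 67.0 CPM in *rrp4-G226D* libraries, against 20.7, 18.01 and 20.5 CPM in *RRP4* libraries. It was 3.26-fold higher without overlap, with a log2 fold change of 1.71 ± 0.09 (SE) and an adjusted p of 5.17e-11 (edgeR). Its neighbour in target position, snR69 for C2948, had 20.8, 20.2 and 21.4 CPM in *rrp4-G226D* libraries, against 10.8, 12.4 and 9.52 CPM in *RRP4* libraries. The genotypes did not overlap, with a log2 fold change of 0.92 ± 0.12 (SE) and an adjusted p of 3.91e-06 (edgeR).

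snR47 pairs with 25S rRNA at A2220 and with 18S rRNA at A619. It had 49.1, 35.6 and 36.4 CPM in *rrp4-G226D* libraries, against 16.96, 17.7 and 18.7 CPM in *RRP4* libraries, 2.26-fold higher without overlap. Its log2 fold change was 1.18 ± 0.12 (SE), with an adjusted p of 2.55e-07 (edgeR). snR48, annotated for G2791 and G2793 of 25S rRNA, was also higher in every *rrp4-G226D* library, with 30.4, 25.5 and 27.7 CPM, against 15.5, 14.97 and 11.7 CPM in *RRP4* libraries. Its log2 fold change was 0.97 ± 0.12 (SE), at an adjusted p of 1.61e-06 (edgeR).

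snR56, the guide for G1428 of 18S rRNA, was called on few reads, 44, 31 and 46 counts in *rrp4-G226D* libraries, against 11, 8 and 18 counts in *RRP4* libraries. After scaling, these were 4.07, 2.61 and 3.28 CPM in *rrp4-G226D* and 1.33, 0.87 and 2.68 CPM in *RRP4*, so that the genotypes overlapped. The log2 fold change was 1.09 ± 0.34 (SE), with an adjusted p of 0.00986 (edgeR). Without *RRP4* replicate 2 it was 0.76, at an adjusted p of 0.0813, and the call was lost, as it was in edgeR's glmTreat test against 1.5-fold (adjusted p = 0.173).

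Of the 4 methylation guides that decreased, snR63 stood apart in length and level. It is 255 bases long and guides A2256 of 25S rRNA. It had 1994, 1834 and 1615 CPM in *rrp4-G226D* libraries, against 6460.4, 4781 and 4930 CPM in *RRP4* libraries. It was 2.97-fold lower without overlap, with a log2 fold change of −1.57 ± 0.11 (SE) and an adjusted p of 1.60e-09 (edgeR).

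snR40 and snR52 each have a target in both rRNAs, like snR47, but were lower in *rrp4-G226D* cells. snR40, for U898 of 25S and G1271 of 18S rRNA, had 9.16, 8.52 and 9.76 CPM in *rrp4-G226D* libraries, against 21.3, 18.3 and 17.7 CPM in *RRP4* libraries. Its log2 fold change was −1.06 ± 0.13 (SE), with no overlap and an adjusted p of 1.31e-06 (edgeR), and its sign turned on the box H/ACA scale (0.19). snR52, for U2921 of 25S and A420 of 18S rRNA, is the member known to be made by RNA polymerase III rather than RNA polymerase II. It had only 18, 16 and 17 counts in *rrp4-G226D* libraries, against 22, 32 and 20 counts in *RRP4* libraries. These were 1.67, 1.35 and 1.21 CPM in *rrp4-G226D* and 2.67, 3.47 and 2.97 CPM in *RRP4*, with a log2 fold change of −1.12 ± 0.28 (SE) and an adjusted p of 0.00218 (edgeR). The CPM did not overlap, although the counts were close. The call was lost in edgeR's glmTreat test against 1.5-fold (adjusted p = 0.081), and the sign turned on the box H/ACA scale (0.12).

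snR79, which guides C1007 of 18S rRNA, had the smallest change among the calls. It had 21.6, 14.8 and 15.1 CPM in *rrp4-G226D* libraries, against 29.9, 25.1 and 32.0 CPM in *RRP4* libraries. Its log2 fold change was −0.76 ± 0.14 (SE), without overlap, at an adjusted p of 0.000122 (edgeR). The call was lost in edgeR's glmTreat test against 1.5-fold (adjusted p = 0.225) and with library size alone (−0.31), and on the box H/ACA scale the sign turned (0.49). In the order of changes, snR79 was followed by snR13 at −0.39, under the threshold. Without *rrp4-G226D* replicate 1, snR13, a guide for A2280 and A2281 of 25S rRNA, reached −0.61 at an adjusted p of 0.000327 (edgeR) and was called.

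The other 11 methylation guides, snR13, snR39b, snR50, snR58, snR60, snR62, snR64, snR65, snR66, snR68 and snR87, had log2 fold changes between −0.39 for snR13 and 0.41 for snR65. Of these, snR13, snR39b, snR62 and snR66 had an adjusted p below 0.05 (edgeR) with a change under 1.5-fold, and snR39b had the smallest error of them, 0.39 ± 0.07 (SE). For snR13 the adjusted p was 0.195 in DESeq2 and 0.129 in edgeR's robust fit, and for snR62 it was 0.052 in DESeq2. snR39b and snR62 were higher in every *rrp4-G226D* library than in any *RRP4* library. The values closest to 0 were those of snR60, 0.01 ± 0.22 (SE), and snR68, 0.08 ± 0.10 (SE). snR65 varied most, with 42, 14 and 20 counts in *rrp4-G226D* libraries, against 12, 11 and 15 counts in *RRP4* libraries. Its standard error of 0.43 leaves room for a change past 1.5-fold, which these counts could not show.

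Members were also grouped by the rRNA they target, beside 12.7% increased and 11.3% decreased over all features. Of the 17 members with a methylation target in 25S rRNA, 4 increased and 3 decreased, with a median log2 fold change of 0.08. Of the 6 with a target in 18S rRNA, 2 increased and 3 decreased, with a median of −0.30. snR40, snR47 and snR52 are counted in both groups.

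**Figure D3:**
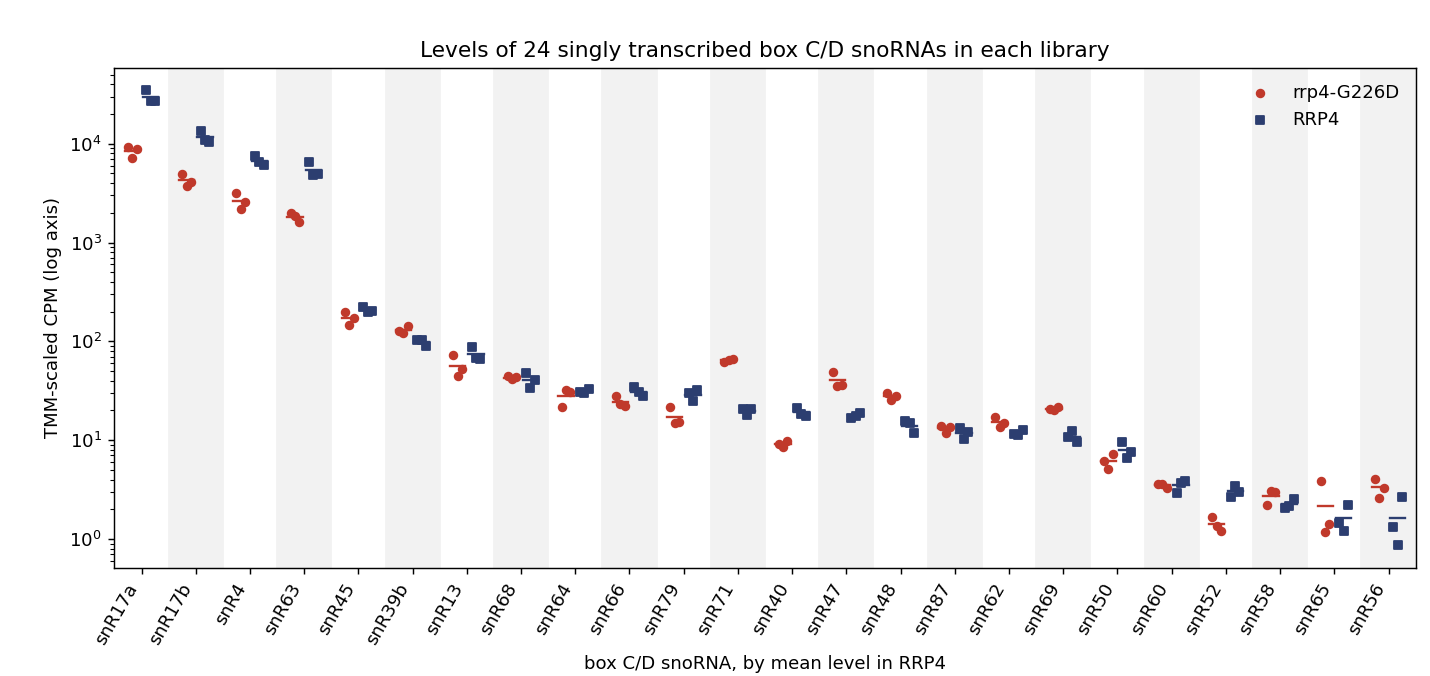
TMM-scaled CPM on a log axis of the 24 snoRNAs in each of 3 *rrp4-G226D* and 3 *RRP4* libraries, ordered by the mean level in *RRP4*; short lines are means. snR17a, snR17b, snR4 and snR63 lie at 1615 CPM or above in every library and are lower in *rrp4-G226D*, whereas no library of the other 20 exceeds 225 CPM.

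Read levels differed widely among these snoRNAs, and the part of the recovery of short RNAs in this was not tested. Divided by length in kilobases, the mean level was highest for snR17a, with 25406 CPM per kb in *rrp4-G226D* and 89869 CPM per kb in *RRP4*. In *RRP4*, snR4 (36142 CPM per kb) and snR17b (35377) came next and were closer to each other than the spread of their libraries, followed by snR63 (21140). The remaining 20 members reached at most 1351 CPM per kb in *rrp4-G226D* (snR39b) and 1209 CPM per kb in *RRP4* (snR45). At the low end of the *RRP4* order, snR65 (16.3 CPM per kb), snR56 (18.5) and snR58 (23.5) did not differ beyond the spread of their libraries. snR17a, snR17b, snR4 and snR63 thus held nearly all reads of the group, 96.2 ± 0.1% of them in *rrp4-G226D* and 98.8 ± 0.1% in *RRP4* (SD, n = 3 each). All 24 members took 2.07 ± 0.22% of all counts in *rrp4-G226D* and 4.61 ± 0.47% in *RRP4*. The other 20 took 0.0796 ± 0.0055% in *rrp4-G226D* and 0.0545 ± 0.0018% in *RRP4*, and their TMM-scaled CPM summed to 682 ± 59 in *rrp4-G226D* and 638 ± 44 in *RRP4* (SD, n = 3 each). The fall of the summed counts therefore came from 4 of the 24 RNAs.

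Those 4 were also the longest, at 186 to 330 bases without the U3 introns, whereas the other 20 had 84 to 172 bases. Across the 24 members, length and log2 fold change had a Pearson r of −0.651 and a Spearman rho of −0.392, and length and the log2 of CPM in *RRP4* had a Pearson r of 0.893 and a rho of 0.592. Within the 20 shorter members, r between length and log2 fold change was −0.085 and rho 0.0505, so the relation rested on the 4 long ones. The level in *RRP4* and the log2 fold change had a rho of −0.555 across the 24 members and −0.235 within the 20 shorter ones. The level in *RRP4* also enters the fold change, so these quantities are not independent. In the 29 box H/ACA snoRNAs rho with the log2 fold change was −0.565 for length and −0.709 for level. In the 20 other box C/D snoRNAs tested it was −0.174 for length and −0.116 for level. All points come from the same 6 libraries, and no test was made. The recovery of RNAs of about 100 bases in these libraries, and its part in these values, was not tested.

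**Figure D4:**
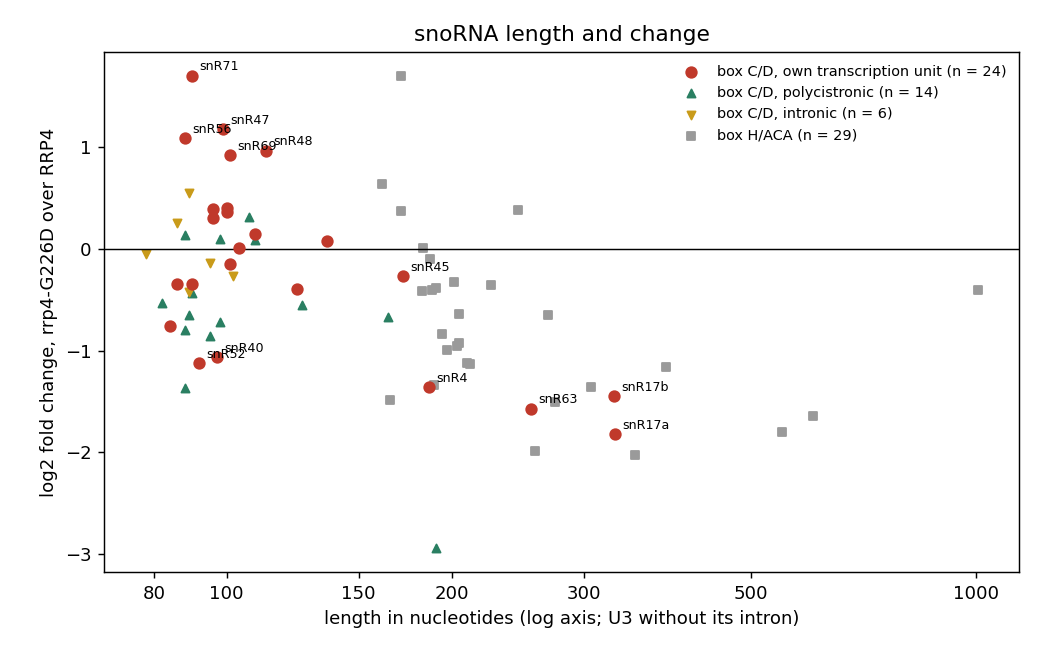
Length of each tested snoRNA on a log axis and its log2 fold change, *rrp4-G226D* over *RRP4*, for the 24 members and for 14 polycistronic box C/D, 6 intronic box C/D and 29 box H/ACA snoRNAs. The 5 members that increased are 88 to 113 bases long, and the 4 members of 186 bases or more lie at −1.36 or below.

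Calls in the other classes of snoRNA are given beside the 12.7% increased and 11.3% decreased over all features. Of 14 tested box C/D snoRNAs from polycistronic precursors, 0 increased and 7 decreased, with a median log2 fold change of −0.60. Of the 6 intronic box C/D snoRNAs, 0 increased and 0 decreased, with a median of −0.09 and values between −0.42 and 0.56. Of 29 box H/ACA snoRNAs, which guide pseudouridylation, 2 increased and 17 decreased, with a median of −0.83. These classes differ in length from the members, with a median length of 204 bases for box H/ACA, 92.5 for the other box C/D and 100.5 for the members, and the classes were not tested against each other. On the scale of the summed box H/ACA snoRNAs, 70.8% of the members were called higher in *rrp4-G226D* and 0 lower, against 90.5% of all features called higher, and snR17a had a log2 fold change of −0.57. The paper also used quantitative RT-PCR, relative to ALG9, in cells with untagged plasmids. It found the polycistronic snR128 (U14) increased and the box H/ACA snR44 without a significant difference. In the counts their log2 fold changes were −0.55 (not called) and −1.13 (decreased). Why the measurements differ was not tested.

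The genes that follow the snoRNAs were examined as well. For 16 members an annotated gene lay downstream on the same strand within 1000 bases, and all 16 genes were tested. Of these, 4 increased, 2 decreased and 10 were not called, with a median log2 fold change of −0.03, beside 12.7% increased and 11.3% decreased over all features. YDR042C, an uncharacterized open reading frame 398 bases past snR47, averaged 33.2 CPM in *rrp4-G226D* and 16.7 CPM in *RRP4* and had a log2 fold change of 1.00 ± 0.11 (SE). RGT1, a repressor of glucose transporter genes that lies 728 bases past snR69, had a log2 fold change of 0.76 ± 0.06 (SE). In both cases the snoRNA and the gene after it increased. FLX1, a mitochondrial carrier gene 148 bases past snR68, averaged 85.7 CPM in *rrp4-G226D* and 43.6 CPM in *RRP4*, a log2 fold change of 0.98 ± 0.07 (SE), whereas snR68 did not pass the test. PMD1, 679 bases past snR52, had a log2 fold change of 0.69 ± 0.06 (SE), opposite in sign to that of snR52. DFR1, for dihydrofolate reductase, 309 bases past snR17a, had −0.67 ± 0.12 (SE), and RPL7A, for a ribosomal protein, 377 bases past snR39b, had −0.98 ± 0.08 (SE). Neighbours thus moved with, against and without their snoRNA. All 6 had an adjusted p below 0.05 (edgeR), the highest 0.000113 for DFR1.

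Annotated genes overlapped 2 members on the same strand, and reads in the shared bases could have been split or dropped in counting. IRC13, which shares 78 of its 315 bases with snR17a, averaged 14.9 CPM in *rrp4-G226D* and 29.0 CPM in *RRP4*, a log2 fold change of −0.95 ± 0.12 (SE). YJL047C-A, which shares 49 of its 135 bases with snR60, averaged 25.2 CPM in *rrp4-G226D* and 10.7 CPM in *RRP4*, a log2 fold change of 1.24 ± 0.11 (SE), although snR60 itself was at 0.01.

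Letters recognized by termination factors were counted in the 150 bases downstream of each member on the sense strand. TCTTG, a form of the Nab3 site, was present for 14 of 24 members (58.3%) and for 15.3% of 6476 annotated genes. GTAG, a form of the Nrd1 site, was present for 15 members (62.5%) and 29.1% of genes, and its other form GTAA for 17 members (70.8%) and 54.3% of genes. The motifs were counted separately and could overlap each other. A match is a description of the letters only. ACCCTAA, a form of the site of Tbf1, an activator of many snoRNA genes, was counted on either strand of the 250 bases upstream. It was present for 2 members, snR13 and snR65 (8.33%), and for 1.85% of genes. Other forms of that site were not counted.

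The mRNAs of proteins that bind, assemble or mature box C/D snoRNAs were examined from a list of 27, all tested. Of these, 4 increased, 1 decreased and 22 were not called, with a median log2 fold change of 0.02. The share that increased was 14.8%, against 12.7% of all features, and the share that decreased was 3.7%, against 11.3% of all features. The 4 that increased were those of the termination factors NRD1, NAB3 and SEN1 and of BCD1, a snoRNP assembly factor. NRD1, whose own mRNA is a known target of premature termination by Nrd1, had 519.8, 504 and 569 CPM in *rrp4-G226D* libraries, against 308, 266 and 275 CPM in *RRP4* libraries. Its log2 fold change was 0.91 ± 0.07 (SE), with an adjusted p of 4.87e-09 (edgeR) and no overlap. NAB3 had a log2 fold change of 0.68 ± 0.07 (SE), BCD1 of 0.63 ± 0.09 (SE) and SEN1 of 0.59 ± 0.06 (SE), the last just past the 1.5-fold line. Their adjusted p values (edgeR) were at most 1.07e-05. Without *rrp4-G226D* replicate 2 or without *RRP4* replicate 3, only 2 of the genes were called increased.

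The gene that decreased was SNU13, for the protein that first binds the C and D boxes. It had 99.2, 82.7 and 93.1 CPM in *rrp4-G226D* libraries, against 161, 146 and 138 CPM in *RRP4* libraries, without overlap. Its log2 fold change was −0.70 ± 0.07 (SE), with an adjusted p of 2.49e-07 (edgeR). The other core proteins did not pass the threshold, with log2 fold changes of −0.57 ± 0.08 (SE) for NOP1, −0.21 ± 0.06 (SE) for NOP58 and −0.05 ± 0.07 (SE) for NOP56. Leaving out *rrp4-G226D* replicate 3 raised the number of decreased genes to 3, and leaving out *RRP4* replicate 2 or *RRP4* replicate 3 raised it to 2. The partners of U3 in the processome, RRP9, MPP10, IMP3 and IMP4, were not called, with log2 fold changes between 0.02 and 0.19.

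**Figure D5:**
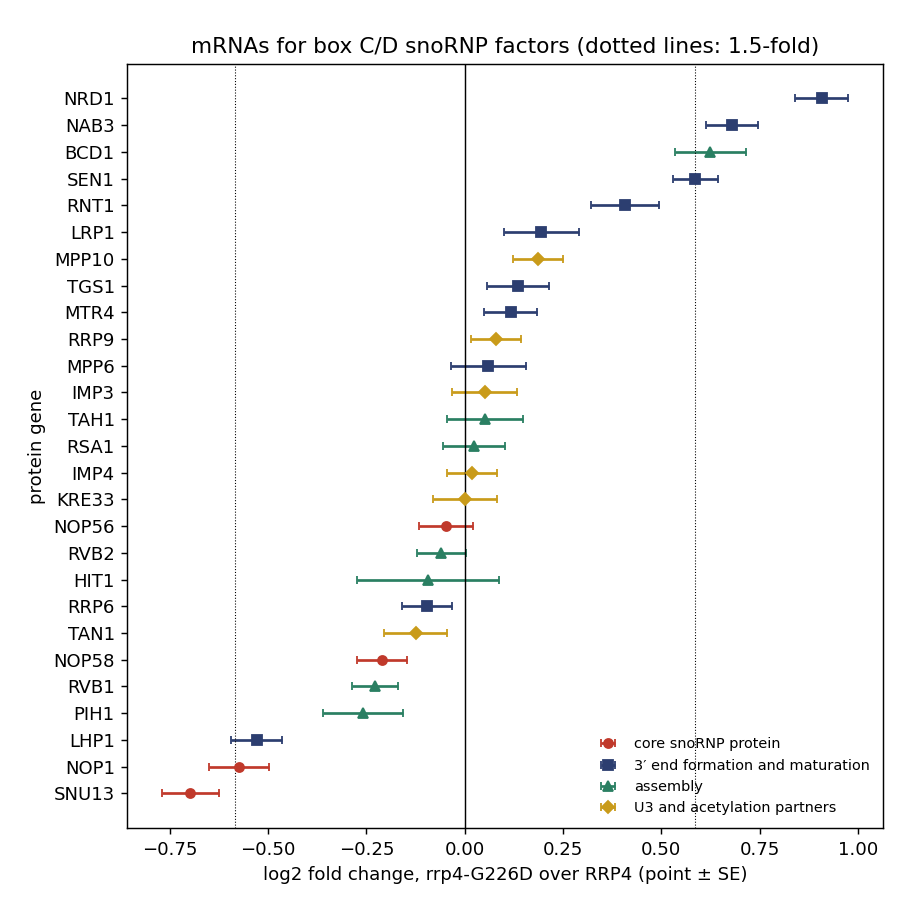
Log2 fold change, *rrp4-G226D* over *RRP4*, with its standard error, of 27 mRNAs for core proteins, assembly factors, maturation factors and partners of box C/D snoRNAs; dotted lines stand at 1.5-fold. NRD1, NAB3, BCD1 and SEN1 lie past the upper line and SNU13 past the lower one.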

How the data were processed

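Per the paper's methods and the submitters' processing notes, the authors aligned read pairs with STAR to genome build R64, extended by annotations of CUTs (cryptic unstable transcripts) and SUTs (stable unannotated transcripts), and obtained reads per gene feature from featureCounts 1.6.4. The deposited values are counts, whole numbers that were not normalized. The strand setting, and what was done with reads matching more than 1 place, are not given in the sources used here. The authors' table of their own DESeq2 comparison (fold changes, p-values) was not used. Counts were scaled by TMM, filtered with filterByExpr by genotype and tested with edgeR 4.0.16 (R 4.3.3), with genotype as the only term and Benjamini-Hochberg adjustment over 7631 features. The test was checked on simulated data with equal numbers of increases and decreases. That check does not cover a scaling that differs between the genotypes. SE is the log2 fold change over the square root of F. DESeq2 1.42.0, other scalings, filters and thresholds, thinning, a replicate block and leaving out each library were alternatives. Names, positions, targets and sequences are RefSeq's, and the U3 introns were delimited here by GTATGT and the last TAG before the shared second exon. All members were described. Values per library were given for those past the threshold and for snR17a, snR17b, snR4, snR45 and snR52, and sequences for the largest changes and U3. Protein genes and downstream neighbours were named where past the threshold, and other core proteins, KRE33, U3 partners and overlapping genes were named after their values were seen. Members and lists were chosen with earlier results of these data known. The paper calls the cultures independent replicates.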

Additional observations from a re-analysis of the deposited data

How the results depend on the processing

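With DESeq2, RLE scaling, TMM over open reading frames, no low-count filter, unadjusted p, a robust fit or libraries thinned to the smallest total, 5 members increased and 7 decreased, as in the report. The median log2 fold change of members moved to 0.0078 with TMM over open reading frames. With library size only, 9 members increased (median of members 0.38), with 2880 features increased, 152 decreased, and 8 protein genes increased and 0 decreased. There snR79 lost its call (−0.31), and snR13 (0.058), snR45 (0.18), snR50 (0.10), snR64 (0.30) and snR66 (0.11) turned positive. With the summed box H/ACA snoRNAs as the scale, 17 members increased and 0 decreased (median 1.18), with 6907 features increased, 13 decreased, and 26 protein genes increased and 0 decreased. There snR13 (0.86), snR40 (0.19), snR45 (0.98), snR50 (0.91), snR52 (0.12), snR64 (1.11), snR66 (0.91) and snR79 (0.49) turned positive. On that scale snR4 (−0.109), snR17b (−0.195), snR63 (−0.309) and snR17a (−0.568) stayed negative but lost their calls. The split of all calls was 52.8% increased with TMM, 95.0% with library size only, 99.8% on the box H/ACA scale, 63.4% with TMM over open reading frames and 68.5% at a fold change of at least 2.

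With a mean count of at least 50, 19 members remained, 4 increased and 6 decreased, with a median of −0.23. With glmTreat against 1.5-fold, 4 members increased and 5 decreased, snR52, snR56 and snR79 were not called, 347 features increased, 445 decreased, and 1 protein gene increased and 0 decreased. At a fold change of at least 2, 3 members increased and 6 decreased, with 411 features increased, 189 decreased and 0 protein genes in either direction. With adjusted p only, 7 members increased and 10 decreased, with 2181 features increased, 2363 decreased and 6 protein genes decreased. After thinning, 2 protein genes decreased, and snR60 stood at −0.0698.

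Leaving out each library in turn, 4 to 5 members increased and 7 to 8 decreased, the median of members ran between −0.15 and −0.0253, 886 to 937 features increased and 842 to 954 decreased. Protein genes increased numbered 2 to 4 and decreased 1 to 3, snR60 ran between −0.11 and 0.0704, snR65 between −0.28 and 0.67, snR68 between −0.0459 and 0.22, and the log2 ratio of snR17a to snR17b between −0.44 and −0.33. Replicate numbers did not pair the samples: deviations of same-numbered libraries correlated at 0.02, 0.07 and −0.07. With a replicate block, 5 members increased and 7 decreased, and the ratio difference was −0.37 (exact p = 0.25, the smallest that 3 pairs allow). Members with few counts (snR52, snR56, snR58, snR60, snR65) are the least precise, and the causes of these shifts were not tested.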
